A study of Sus scrofa with 70 samples.

Results

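The genes described here are 10 muscle genes of the boar, read in the testis, the epididymis and the 3 accessory glands that add fluid to semen. They were chosen as names of muscle proteins: 5 of skeletal muscle (ACTA1, MYH1, MYH7, CKM and TNNT3) and 5 of smooth muscle (ACTA2, MYH11, DES, TAGLN and CNN1). All 10 were found among the 35680 genes obtained by summing transcripts, and 8 of them were among the 19911 genes with at least 1 TPM (the share of a transcript among all transcripts, set to a fixed total) in at least 3 libraries, which were the genes tested. MYH1 and MYH7 did not reach that level and have values but no test. The groups were 12-month boars of the Diannan small-ear pig (DSE) and of the Banna mini-pig inbred line (BMI), a line bred from it, with 5 organs taken from each breed: testis, epididymis, bulbourethral gland, prostate and vesicular gland. RNA-seq gave 3 libraries per breed and gland (30 in all, 6 per gland), small RNA sequencing another 30, and Iso-seq (long reads of whole transcripts) 1 library per breed and gland (10 in all). No animal was treated. The labels do not say which libraries came from separate animals, so p-values measure the spread between these libraries.

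Striated fibres of skeletal muscle contract by thin filaments of skeletal actin sliding on sarcomeric myosin, under the control of troponin, with creatine kinase feeding ATP to the sarcomere. Smooth muscle lines ducts and surrounds glands. It has no sarcomeres or troponin, uses its own actin and myosin heavy chain, and contracts when the myosin light chain is phosphorylated. In the male tract, smooth muscle of the epididymal duct moves sperm, and that of the accessory glands expels their fluid at ejaculation. The bulbourethral gland of the boar is also known to lie under a skeletal muscle, the bulboglandularis.

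Of the skeletal genes, ACTA1 (ENSSSCG00000010190, chromosome 14, skeletal alpha-actin), MYH1 (ENSSSCG00000054680, chromosome 12, a fast myosin heavy chain), MYH7 (ENSSSCG00000053614, chromosome 7, the slow myosin heavy chain), CKM (ENSSSCG00000036132, chromosome 6, muscle creatine kinase) and TNNT3 (ENSSSCG00000031903, chromosome 2, fast troponin T) are parts of the fibre or its energy supply. Of the smooth muscle genes, ACTA2 (ENSSSCG00000010447, chromosome 14) is smooth muscle alpha-actin, MYH11 (ENSSSCG00000000146, chromosome 3) the smooth muscle myosin heavy chain, TAGLN (ENSSSCG00000015073, chromosome 9) transgelin, an actin-binding protein, and CNN1 (ENSSSCG00000013614, chromosome 2) calponin, which binds actin and calms the myosin ATPase. DES (ENSSSCG00000020785, chromosome 15) is desmin, an intermediate filament that skeletal fibres also hold. The actins are close to each other in sequence, as are the sarcomeric myosins, so reads can be split between them, and levels of MYH1 in particular are uncertain.

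The binding site of serum response factor, the CArG box (CC, then 6 bases that are each A or T, then GG), is a textbook feature of muscle promoters and is shown for the members that carry one. It was searched in the 250 bases before each annotated transcript start. Since the box reads as the same pattern on either strand, 1 search covers both. It was present before 5 of 54 distinct starts of the members, and in 1.37% of 84773 such windows over all transcripts. By gene, 4 of the 10 had a box before at least 1 start (in ACTA1 1 box lay before 2 starts), and so did 3.26% of 16182 genes with a symbol. The box is in capitals with 10 bases on each side, read from the Sscrofa11.1 genome on the plus strand.
ACTA1, chr14:60412837-60412866, box 55 bases before the start: tgcccaacacCCAAATATGGctcgagaagg
MYH7, chr7:75648354-75648383, box 78 bases before the start: ccactccgggCCTTATTTGGtctaccttgc
TAGLN, chr9:44561682-44561711, box 159 bases before the start: gtgtctttccCCAAATATGGagcctgtgtg
CNN1, chr2:70184443-70184472, box 72 bases before the start: agccgccgagCCATATAAGGcgggctccgg
ACTA1, a skeletal gene, and TAGLN, a smooth muscle gene, carried the same 10 letters. These are matches of letters, not measured binding.

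As sums, the markers of each labelled gland were highest in that gland. Single markers went otherwise by the limma test given below. GCNT1 of the bulbourethral list was called lower in bulbourethral than in vesicular gland, and ACP3 of the prostate list lower in prostate than in epididymis. KLK4 of the prostate list was called lower in prostate than in testis, and SAL1 of the vesicular list lower in vesicular gland than in testis. The summed markers of the epididymis (5 genes found) lay between 1484 and 20336 TPM in epididymis and below 31 TPM in every other gland. Those of the bulbourethral gland (4 genes) lay between 5619 and 23512 TPM there. In prostate, BMI library 2 also held the spermadhesins of the vesicular gland: PSP-I, PSP-II and AWN summed to 138090 TPM there and to 1.09 to 8.90 TPM in the other 5. DSE prostate library 2 stood apart in SAL1, a lipocalin from the same list that was at most 7.66 TPM in vesicular gland, with 60580 TPM against 1.47 to 1777 TPM in the other 5. Results that involve prostate are given also without BMI library 2, and without both, where a call changes. A few secretory transcripts took much of the TPM total, with the 10 most abundant transcripts holding 47.3 to 64.7% in vesicular gland, 41.4 to 56.2% in prostate and 9.24 to 22.0% in epididymis, so other genes are pushed down in vesicular gland and prostate. The median of all tested genes was 0.74 lower (log2) in vesicular gland than in epididymis, and 0.10 lower after scaling by size factors from the median of ratios. For prostate it was 0.38 lower than in epididymis, and 0.09 lower after that scaling.

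The smooth muscle genes were highest in epididymis, intermediate in vesicular gland and prostate, and lowest in bulbourethral gland and testis. TAGLN ran from 579 to 6505 TPM in the 6 epididymis libraries, with a median of 1980. In vesicular gland its range was 237 to 1447 TPM (median 756) and in prostate 76.8 to 1166 TPM (median 616). Bulbourethral gland held 71.3 to 252 TPM (median 98.6) and testis 48.6 to 127 TPM (median 59.3). Each epididymis library was above each testis and bulbourethral library. The vesicular and prostate ranges overlapped, with BMI prostate libraries 1 and 3 (166 and 76.8 TPM) below each vesicular library.

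MYH11, the motor of the smooth muscle cell, spread further. It ran from 409 to 3559 TPM in epididymis (median 1024), from 59.4 to 473 TPM in vesicular gland (median 261) and from 16 to 383 TPM in prostate (median 244). Bulbourethral gland (13.4 to 41.4 TPM, median 20.8) and testis (18.8 to 39.7 TPM, median 24.2) covered the same range. ACTA2 had the same order, with medians of 2035 TPM in epididymis, 475 TPM in vesicular gland, 441 TPM in prostate, 60.0 TPM in bulbourethral gland and 58.5 TPM in testis. CNN1 was the gene that set testis most apart: it reached at most 4.65 TPM there and 20.3 TPM in bulbourethral gland, against 77.9 to 1637 TPM in epididymis.

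**Figure D1:**
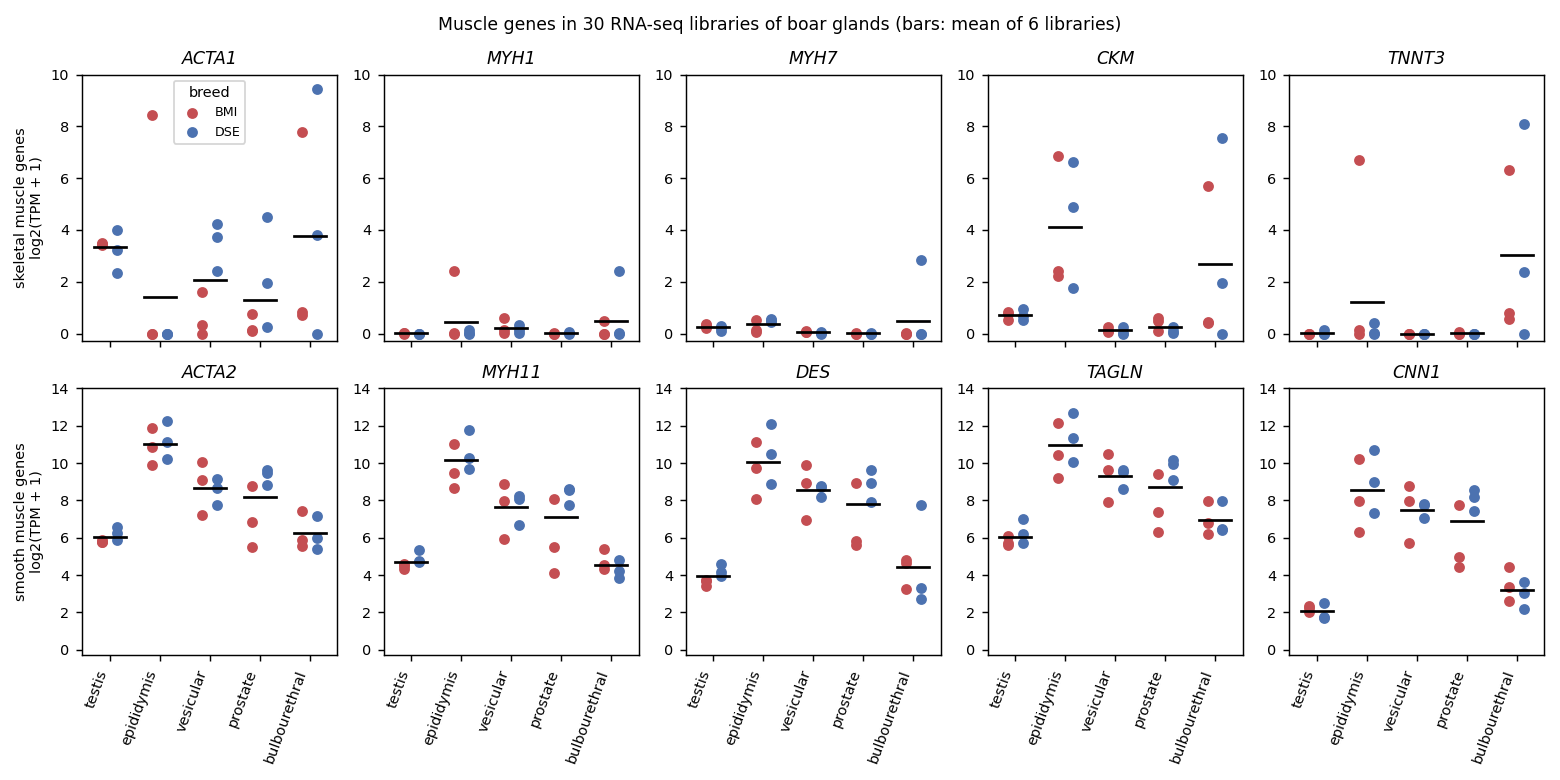
Level of each of the 10 genes, as log2(TPM + 1), in 30 RNA-seq libraries by gland, with BMI libraries in red, DSE libraries in blue and a black bar at the mean of 6 libraries. The smooth muscle genes in the lower row form gland groups, with TAGLN at 579 to 6505 TPM in epididymis, whereas ACTA1 and TNNT3 in the upper row are high in single libraries of epididymis and bulbourethral gland.

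The gland differences of these 5 genes were tested with limma over all 19911 genes, on log2(TPM + 1), and a gene was called where p, adjusted over these genes by Benjamini and Hochberg, was below 0.05 and the log2 difference at least 1. Against testis, 5 of 5 were higher in epididymis (21.6% of all genes were called higher), 5 of 5 in vesicular gland (8.04%) and 5 of 5 in prostate (12.4%). Against bulbourethral gland, where the same test called 15% of genes lower than in epididymis, 4.13% lower than in vesicular gland and 2.01% lower than in prostate, 5 of 5 were lower each time. The median difference of the 5 was 5.45 between epididymis and testis, where the median of all genes was 0.02. Between bulbourethral gland and prostate it was -2.57, against 0.11 for all genes. TAGLN had the smallest of these last differences, -1.76 ± 0.55 (SE, 6 libraries per gland, limma adjusted p = 0.026), and without BMI prostate library 2 it was -1.33 and no longer called (limma adjusted p = 0.098). Without both of the prostate libraries that stood apart it was -1.49 (limma adjusted p = 0.092), and it was called in 13 of 21 alternatives in all.

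Epididymis also stood above the other muscular glands. All 5 genes were lower in prostate than in epididymis (17.6% of all genes were), from -1.69 ± 0.63 for CNN1 (limma adjusted p = 0.034) to -3.05 ± 0.55 for MYH11 (limma adjusted p = 8.1e-05). CNN1 was the weakest of these, and it lost its call in 10 of 21 alternative settings, size factors among them. Size factors changed the split of all calls between these glands from 731 higher and 3514 lower to 1208 higher and 2085 lower. Between vesicular gland and epididymis 3 of 5 were lower, where 34.5% of all genes were lower: ACTA2 by -2.38 ± 0.51, MYH11 by -2.52 ± 0.55 and TAGLN by -1.67 ± 0.56. DES (-1.49 ± 0.74, limma adjusted p = 0.083) and CNN1 (-1.07 ± 0.63, limma adjusted p = 0.15) were not called. With size factors the difference of TAGLN was -0.68 and not called (limma adjusted p = 0.33), while ACTA2 and MYH11 kept their calls in each of 20 alternatives. The same scaling changed the split of all calls between these glands from 383 higher and 6878 lower to 1137 higher and 1940 lower.

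Prostate and vesicular gland did not differ beyond their spread in any of the 5 genes. limma called 0 of 5 (11.3% of all genes were called higher and 3.43% lower), 0 of 5 had an unadjusted p below 0.05, and no alternative setting called one. The differences, prostate minus vesicular gland, lay between -0.77 for DES and -0.48 for ACTA2 with standard errors of 0.51 to 0.74. Differences larger than 1 on the log2 scale are therefore not excluded by these libraries. Bulbourethral gland and testis likewise gave 0 of 5 calls by limma (15.8% and 33.3% of all genes were called higher and lower) and 0 of 5 at an unadjusted p below 0.05. Array weights, which down-weight libraries far from their group, called 2 of 5.

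**Figure D2:**
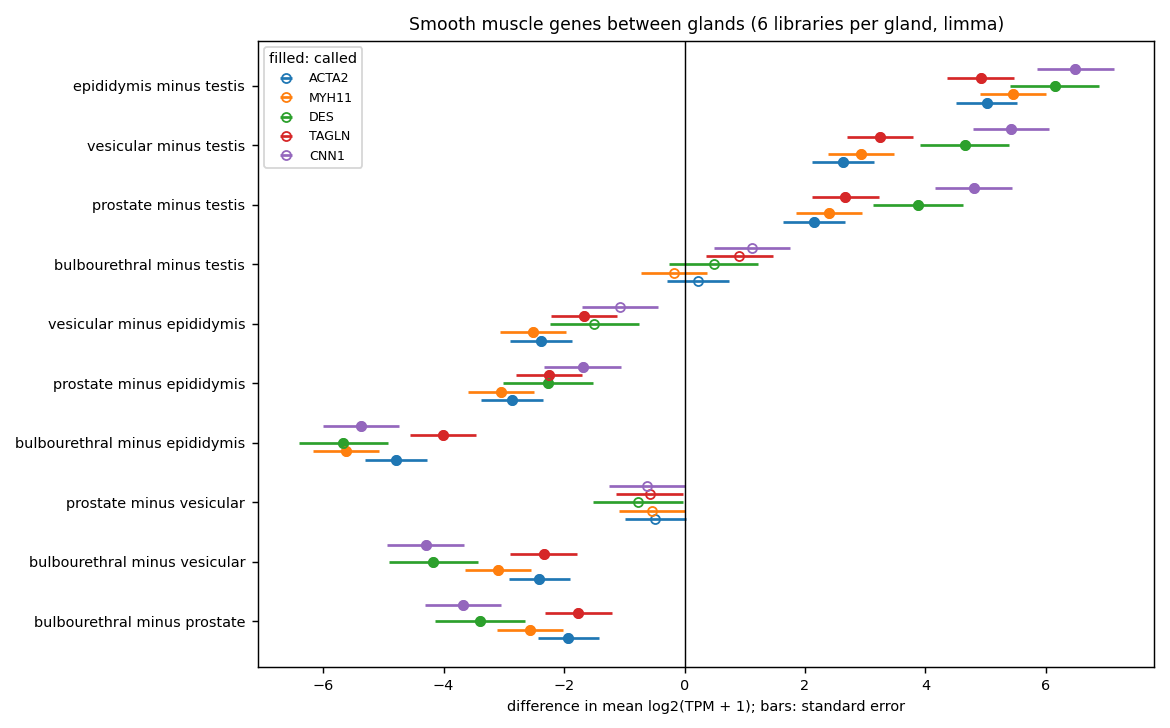
Difference in mean log2(TPM + 1) of the 5 smooth muscle genes for the 10 pairs of glands, with standard errors of the limma fit, 6 libraries per gland, and filled points for called differences. Points lie far from 0 wherever epididymis, vesicular gland or prostate is set against testis or bulbourethral gland, and prostate minus vesicular gland stays between -0.77 and -0.48.

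In epididymis, vesicular gland and prostate, and less evenly in bulbourethral gland, the same libraries were highest or lowest in most of the 5 genes. DSE epididymis library 2 was the highest of 6 in all 5 genes (26.2% of all genes peaked there) and BMI epididymis library 2 the lowest in all 5 (6.62%). BMI vesicular library 1 was lowest in all 5 (9.03%), and BMI prostate library 3 was lowest in all 5 (30.2%). BMI vesicular library 2 was highest in all 5, but so it was for 63.5% of all genes, and after size factors in 2 of 5. In bulbourethral gland BMI library 3 was highest in 3 of 5 (16.8%) and DSE library 1 lowest in 4 of 5, for which no share of all genes was counted. There 0 of 6 libraries had the same rank in all 5 genes. In testis DSE library 2 was highest in all 5 (36.2%) and in 4 of 5 after size factors, while BMI library 1 was lowest in 2 (6.64%). The sum of the 5 genes spanned 2291 to 20837 TPM among the epididymis libraries, and from 206 to 3485 TPM among the prostate libraries. In bulk tissue, more smooth muscle cells and more of these RNAs per cell cannot be told apart. Markers of other stromal cells were not flat: in epididymis the 6 endothelial markers summed to 672 TPM in BMI library 1 and 296 TPM in DSE library 2 against 52.2 to 216 TPM in the rest, and the 6 fibroblast markers to 8619 and 3620 TPM against 428 to 1540 TPM. Between glands they moved too: 5 of 6 fibroblast, 4 of 6 pericyte and 4 of 6 endothelial markers were higher in epididymis than in testis (21.6% of all genes). In vesicular gland 5, 5 and 4 of 6 were lower than in epididymis (34.5%), and in bulbourethral gland 0, 2 and 0 of 6 (15%). Their part in the smooth muscle levels was not tested.

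Most other genes of the smooth muscle contractile machinery were also lower outside the epididymis. Of 19 such genes tested, 19 were lower in bulbourethral gland than in epididymis (15% of all genes were) and 17 were lower in prostate than in epididymis (17.6%). In bulbourethral gland 10 of 19 were lower than in vesicular gland (4.13%) and 6 of 19 lower than in prostate (2.01%), with 0 higher. Against testis 14 were higher in vesicular gland (8.04%) and 10 in prostate (12.4%), and 4 were higher and 3 lower in bulbourethral gland (15.8% and 33.3%). MYOCD, the coactivator of smooth muscle genes, went the other way, being called lower than in testis in all 3 accessory glands. The 4 with the highest mean were MYL9, the regulatory myosin light chain, TPM1, a tropomyosin, CSRP1, a cytoskeletal LIM protein, and ACTG2, the enteric gamma-actin. ACTG2 had a median of 801 TPM in epididymis and 3.97 TPM in bulbourethral gland, a log2 difference of -6.87 ± 0.84 (limma adjusted p = 4.1e-07). MYL9 had medians of 1031 and 39.0 TPM in the same glands. CSRP1, less particular to muscle in its usual expression, fell by 1.71 ± 0.36 and did not differ between bulbourethral and vesicular gland (-0.07 ± 0.36). Over all 30 libraries the genes most alike to the mean log2 level of the 5 members, among genes with a symbol, were FLNA (filamin A, Pearson r = 0.98), TPM2 (0.98), PGM5 (0.97), ACTG2 (0.97) and LMOD1 (0.96), a description over libraries that share gland and composition.

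MYH11 makes several proteins by alternative splicing, and the long reads separated them. An exon of 21 bases, which adds 7 amino acids near the ATP-binding loop and defines the SM-B form of the protein, lay at chromosome 3, bases 7075419 to 7075439. It is shown in capitals with 4 bases of intron on each side, on the plus strand of Sscrofa11.1.
MYH11 exon of 21 bases, chr3:7075415-7075443: acagCAAGGCCCATCTTTTGCCTACgtga
A second exon, of 39 bases at 7139020 to 7139058, gives the SM2 tail when present and the SM1 tail when skipped. 4 isoforms with otherwise the same exons were the 4 combinations of these exons. The form with neither had 1141 reads, the form with the 39-base exon 215, the form with the 21-base exon 189 and the form with both 139.

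In long reads the 21-base exon was used in epididymis and close to absent in vesicular gland and prostate. Among reads that cross it, 267 of 980 in BMI epididymis held it (27.2%, 95% exact binomial interval 24.5 to 30.1%) and 71 of 654 in DSE epididymis (10.9%, 8.58 to 13.5%). In vesicular gland these were 2 of 237 reads in BMI (0.844%, 0.102 to 3.01%) and 0 of 113 in DSE, which allows a share of up to 2.65% as 3 reads of the total (the exact interval reaches 3.21%). Prostate held it in 3 of 385 reads in BMI (0.779%, 0.161 to 2.26%) and 0 of 97 in DSE, which allows up to 3.09% by the same limit (exact interval to 3.73%). The intervals of both epididymis libraries lay above those of all 4 libraries of vesicular gland and prostate. Testis and bulbourethral gland gave few reads, 6 of 41 and 7 of 36 over both breeds, and their intervals were wide. Intervals cover counting error only, and with 1 library per breed and gland there is no test.

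The RNA-seq estimates, which divide short reads among transcripts, gave 6 libraries per gland for the same share. The share of MYH11 TPM with the 21-base exon, among transcripts that cross it, was 6.68 to 35.4% in epididymis (median 22.4%) and 1.80 to 3.97% in vesicular gland (median 3.06%), with no overlap. Prostate ran from 3.64 to 43.4% (median 9.25%) and overlapped epididymis, unlike in the long reads, and its highest value came from BMI library 1, where the transcripts across the exon summed to 10.3 TPM. The 39-base exon showed no such gap: long reads held it in 19.4% (16.7 to 22.3%) and 10.5% (8.31 to 13.0%) of BMI and DSE epididymis reads, in 27.7% (21.7 to 34.4%) and 25.2% (17.6 to 34.2%) of vesicular reads and in 19.3% (14.7 to 24.5%) and 24.1% (16.4 to 33.3%) of prostate reads. This exon pair was looked at after the isoform counts were seen.

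**Figure D3:**
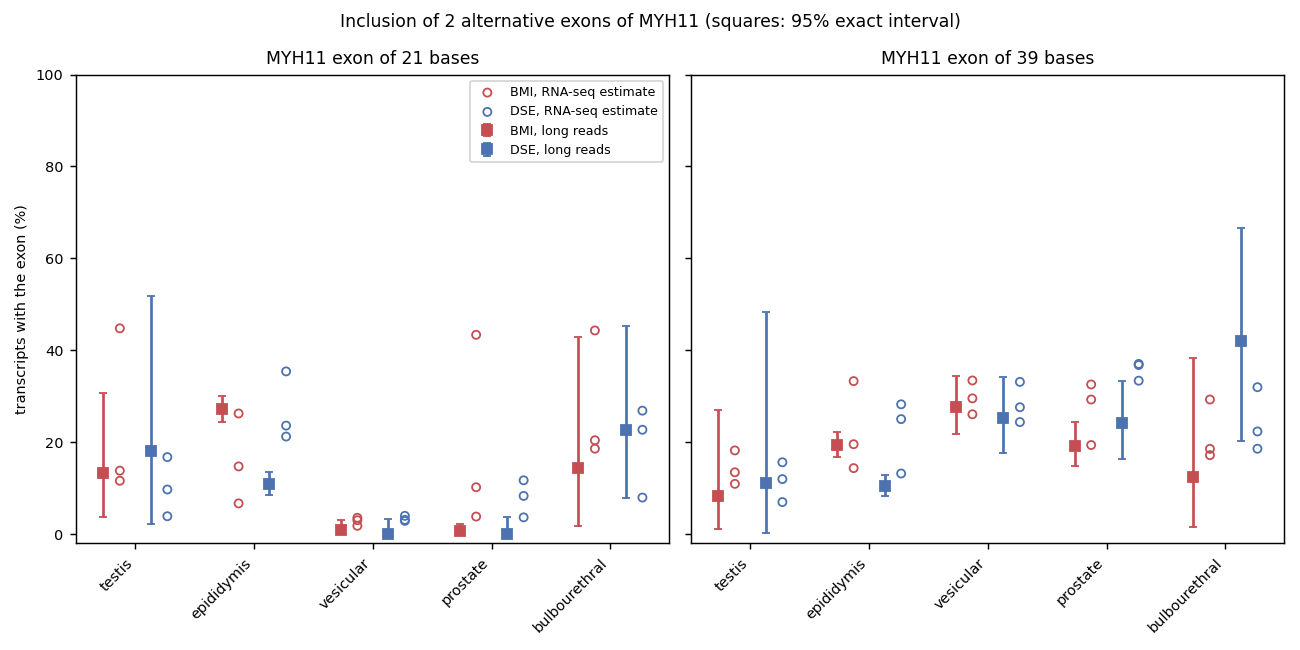
Share of MYH11 transcripts with the exon of 21 bases (left) and of 39 bases (right) by gland, with squares for Iso-seq reads of 1 library (95% exact intervals) and open circles for RNA-seq estimates of single libraries, BMI in red and DSE in blue. On the left, epididymis squares at 27.2 and 10.9% stand above vesicular and prostate squares below 1%, and on the right the epididymis, vesicular and prostate ranges overlap while the testis circles (6.97 to 18.2%) lie below the vesicular and prostate circles.

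The skeletal muscle genes were highest in single libraries of a gland, although CKM in epididymis and ACTA1 in testis were also present in each of 6 libraries. ACTA1 was 689 TPM in DSE bulbourethral library 3, 222 TPM in BMI bulbourethral library 1 and 341 TPM in BMI epididymis library 1. In the other bulbourethral libraries it was 13.2 TPM (DSE library 2), 0.77 TPM (BMI library 2), 0.64 TPM (BMI library 3) and 0 (DSE library 1), and it was listed at 0 in the other 5 epididymis libraries. Prostate held 0.06 to 21.8 TPM with a median of 0.43 TPM. Thus 3 libraries carried the gene at over 200 TPM, and none of them was prostate.

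TNNT3, which has no role outside striated muscle, marked the same 3 libraries. It was 274 TPM in DSE bulbourethral library 3, 79.6 TPM in BMI bulbourethral library 1 and 103 TPM in BMI epididymis library 1. The next values were 4.21 TPM in DSE bulbourethral library 2, 0.74 and 0.49 TPM in BMI bulbourethral libraries 2 and 3, and 0 in DSE library 1. It stayed at or below 0.33 TPM in the other epididymis libraries, at 0 in all 6 vesicular libraries, at or below 0.05 TPM in prostate and at or below 0.09 TPM in testis. CKM in the same 3 libraries was 188, 51.2 and 114 TPM. The 3 genes kept similar proportions there: CKM was 0.27, 0.23 and 0.33 of ACTA1, and TNNT3 was 0.40, 0.36 and 0.30 of ACTA1. In DSE bulbourethral library 2, with 13.2 TPM of ACTA1, the same proportions were 0.22 and 0.32.

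Both heavy chains were scarce. MYH1 was 4.40 TPM in BMI epididymis library 1, 4.37 TPM in DSE bulbourethral library 3, 0.39 TPM in BMI bulbourethral library 1 and at most 0.54 TPM elsewhere. MYH7 was 6.09 TPM in DSE bulbourethral library 3 and at most 0.47 TPM in the other 29 libraries. The 5 genes together made 1162 TPM, or 0.116% of all TPM, in DSE bulbourethral library 3. They made 562 TPM in BMI epididymis library 1 and 353 TPM in BMI bulbourethral library 1.

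DES, the filament shared by both kinds of muscle, was highest in the bulbourethral library with the most skeletal RNA. It was 216 TPM in DSE library 3, 26.6 TPM in BMI library 1, 23.6 TPM in BMI library 3 and 5.55 to 9.02 TPM in the other 3. It did not follow the skeletal genes beyond DSE library 3: their sum was 353 TPM in BMI library 1, 1.46 TPM in BMI library 3 and 20.3 TPM in DSE library 2, where DES was 9.02 TPM. MYH11, which is not expressed in skeletal fibres, was 27.4 TPM in DSE library 3 and 41.4 TPM at its highest, in BMI library 3.

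Because the signal sat in single libraries, calls of the skeletal genes in bulbourethral gland rested on them. TNNT3 reached 1 TPM in 4 libraries, 3 of them bulbourethral, so it entered the test through the gland where it was high. Its differences, 3.01 ± 1.09 from testis and 3.03 ± 1.09 from vesicular gland, are therefore a description and its calls there are no support. CKM was called higher in bulbourethral than in vesicular gland (2.56 ± 1.03, limma adjusted p = 0.041), where 23.6% of all genes were called higher, and in 7 of 20 alternatives. Neither gene was called in these comparisons without BMI bulbourethral library 1, nor without DSE bulbourethral library 3. Without all 3 libraries rich in TNNT3, the differences of TNNT3 were 0.92 ± 0.25 from testis and 0.94 ± 0.25 from vesicular gland. They stayed apart from 0 (limma adjusted p = 0.0026 and 0.0037) but fell below the log2 threshold of 1, again a description. CKM was then 0.58 ± 0.54 above vesicular gland (limma adjusted p = 0.43). Against prostate limma called none of ACTA1, CKM and TNNT3 (5.64% of all genes were higher), and 2 of 3 had an unadjusted p below 0.05. TNNT3 was called there in 5 of 21 alternatives, a replicate block among them (limma adjusted p = 0.035). These calls are likewise no support, since TNNT3 entered the test through the bulbourethral gland.

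Of the skeletal members, only CKM was at 1 TPM or more in each of 6 epididymis libraries. It was 114 TPM in BMI library 1, 98.6 TPM in DSE library 2, 28.3 TPM in DSE library 3, 4.28 and 3.61 TPM in BMI libraries 3 and 2, and 2.43 TPM in DSE library 1. In the last 5 of these ACTA1 was listed at 0 and TNNT3 was at most 0.33 TPM. No testis, vesicular or prostate library reached 1 TPM. CKM was called higher in epididymis than in testis (3.41 ± 1.03, limma adjusted p = 0.0047), and lower in vesicular gland (-4.0 ± 1.03, limma adjusted p = 0.0017) and in prostate (-3.86 ± 1.03, limma adjusted p = 0.0037) than in epididymis. Each of these 3 calls held in all of its 20 or 21 alternative settings, also without the 3 libraries rich in TNNT3. The long reads held 1 read of CKM in BMI epididymis and 0 in DSE epididymis. The epididymis libraries with the most CKM were also those with the most smooth muscle RNA: the sum of the 5 smooth muscle genes was 13745 TPM in BMI library 1, 20837 TPM in DSE library 2 and 7978 TPM in DSE library 3, and 2291 to 5040 TPM in the other 3.

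The short reads of ACTA1 in testis were assigned to another transcript than those of the libraries rich in TNNT3. All 6 testis libraries held the gene, at 4.09 to 15 TPM (median 9.79), with TNNT3 at 0 in 5 of 6. There 79.5% of its TPM was assigned to an Iso-seq isoform of 7 exons and 1807 bases, and less than 2% in epididymis and bulbourethral gland, where the Ensembl transcript ENSSSCT00000040776 took 89.8 and 92.6%. The long reads did not make that split: 1893 of the 1907 reads of the same isoform came from BMI bulbourethral gland, and 8 from testis. With Ensembl transcripts alone, the difference of ACTA1 between epididymis and testis changed sign, from -1.92 to 1.38, neither called. Over 20 alternatives this difference ran from -4.54, with pseudocount 0.1, to 1.38 and was called lower in epididymis in 3 of them. It was -3.32 and called without BMI epididymis library 1, the 1 library of that gland with ACTA1 above 0. In DSE libraries ACTA1 also reached 17.6 TPM in vesicular gland and 21.8 TPM in prostate, again with TNNT3 at 0.

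Further skeletal genes, taken as lists, peaked in the same libraries. DSE bulbourethral library 3 held the highest of 30 values for 7 of 11 genes of fast fibres, 6 of 10 of slow fibres and 11 of 17 of the sarcomere, calcium release and fuel supply, against 2.99% of all tested genes. BMI epididymis library 1 was the highest of 6 epididymis libraries for 8 of 11 fast and 14 of 17 sarcomere genes, and for 3 of 10 slow genes, against 24.1% of all genes. In bulbourethral gland, DSE library 3 was highest and BMI library 1 next for 9 of 11 fast, 2 of 10 slow and 12 of 17 sarcomere genes, against 2.67% of all. The lists counted here include genes below the filter on low values, while the shares are of genes past it. Markers of other cells moved with these libraries too. In BMI epididymis library 1 the 6 pericyte markers summed to 454 TPM against 54.4 to 204 TPM in the other 5, with 6 of 6 at their highest there, as were 5 of 6 endothelial and 6 of 6 adipocyte markers, and its 4 vesicular gland markers summed to 4326 TPM against 2.43 to 993 TPM. In DSE bulbourethral library 3, 6 of 6 pericyte and 6 of 6 endothelial markers were at their highest of 6, as were 32.4% of all genes, with the endothelial sum at 175 TPM against 68.3 to 109 TPM. Their part in the skeletal levels was not tested. Not each listed gene followed the skeletal members. In testis the sarcomere list summed to 186 to 231 TPM and the fast list to 52.8 to 153 TPM, against bulbourethral medians of 48.7 and 18.6 TPM. All 6 testis libraries held ENO3, the muscle enolase (30.8 to 101 TPM), CA3, a carbonic anhydrase (44.3 to 163 TPM), and MYOZ1, myozenin (39.6 to 135 TPM). PVALB, parvalbumin, reached 1002 TPM in DSE epididymis library 1 and was 0 in BMI epididymis library 1 and 0.03 TPM in DSE bulbourethral library 3.

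Between glands, 5 of 9 fast genes tested were called higher in bulbourethral than in vesicular gland, MYLPF and TNNI2 among them, where 23.6% of all genes were, and 2 of 9 without the 3 libraries rich in TNNT3. MYLPF, the fast regulatory light chain, was 641, 161 and 184 TPM in DSE bulbourethral library 3, BMI bulbourethral library 1 and BMI epididymis library 1, with a bulbourethral median of 7.20 TPM. TNNI2, fast troponin I, was 427, 92.9 and 127 TPM there. Of 7 slow genes tested 2 were called higher in bulbourethral than in vesicular gland, TNNT1 and ATP2A2, a share near that of all genes, and of 15 sarcomere genes 6 were. The other comparisons of the bulbourethral gland gave fewer. Against prostate 2 fast, 0 slow and 1 sarcomere genes were called higher (5.64% of all genes). Against epididymis these were 0, 1 and 1 (6.32%), with 0, 1 and 2 lower (15%). Against testis they were 1, 0 and 2 (15.8%), with 2, 1 and 4 lower (33.3%). Of the genes called higher than in vesicular gland, 1 fast (MYBPC2) and 1 sarcomere gene (MYOT) reached 1 TPM in fewer than 3 libraries outside the bulbourethral gland and so were tested through that gland. In epididymis 2 of 9 fast, 1 of 7 slow and 3 of 15 sarcomere genes were called higher than in testis, near the 21.6% of all genes. With these, 2, 0 and 5 were called lower (5841 of all 19911 genes). TNNC2 of the fast list (1.06 to 67.8 TPM) and TCAP of the sarcomere list (2.89 to 33.4 TPM), both called higher, were like CKM present in each epididymis library.

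Some slow forms differed among the 3 libraries, and these genes were named after their values were seen. TNNI1, slow troponin I, was 13.5 TPM in DSE bulbourethral library 3, or 3.15% of its fast partner TNNI2, and 0 in the other 2 libraries. MYL2, the slow light chain, was 10.4 TPM, or 1.62% of MYLPF, and again 0 in the others. TNNT1, slow troponin T, was 15.1 TPM in that library, 1.11 TPM in BMI bulbourethral library 1 and 0 in BMI epididymis library 1. Other slow genes went otherwise. In the order DSE bulbourethral library 3, BMI bulbourethral library 1 and BMI epididymis library 1, TNNC1, which cardiac muscle also uses, was 53.2, 0.53 and 29.8 TPM, and MYL3, a light chain, 9.55, 0.081 and 6.78 TPM. CASQ2, a calcium store protein, was 2.01, 1.03 and 19.2 TPM, TPM3, a tropomyosin, 16.9, 9.31 and 10.01 TPM, and MYH7B, a myosin, 5.19, 9.40 and 4.82 TPM.

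Among factors that act in muscle precursors, MYOD1 was at most 0.20 TPM and MYOG at most 0.63 TPM in any epididymis or bulbourethral library. MYMK, which acts in the fusion of myoblasts, was 3.89 TPM in BMI epididymis library 1 and at most 0.59 TPM in the other epididymis libraries. MEF2C, which other cells also use, was 15.1 TPM in BMI epididymis library 1 and 12.1 TPM in DSE bulbourethral library 3, each the highest of its gland. MYF6, the member of that family that persists in adult fibres, was 8.68 TPM in DSE bulbourethral library 3 and 0.59 TPM or less in the epididymis libraries. Of 7 cardiac genes found, ACTC1, cardiac actin, was 18.1 TPM and TNNT2, cardiac troponin T, 3.41 TPM in DSE bulbourethral library 3, each the highest of its gland, as was TNNI3, cardiac troponin I, at 1.32 TPM. The 7 summed to 22.8 TPM there and to 0.019 to 0.970 TPM in the other 5, but to 10.6 to 44.6 TPM in testis and up to 21.9 TPM in epididymis. MYH6 was 0.06 TPM in DSE bulbourethral library 3 and 1.35 TPM in BMI epididymis library 1, where the median of its gland was 3.08 TPM, and NPPA and NPPB were 0 there and in the other 2 libraries rich in TNNT3. The bulbourethral markers summed to 17897 TPM in DSE library 3 and 5619 TPM, the lowest of 6, in BMI library 1.

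Over the 30 libraries the genes with a symbol most alike to the mean log2 level of the 5 skeletal members were COX8H (Pearson r = 0.97), MYL1 (0.96, and 0.95 for a second gene model with that symbol), MYH8 (0.96) and ATP2A1 (0.94). MYL1 is the fast essential light chain, ATP2A1 the calcium pump of fast fibres and COX8H the muscle form of a subunit of cytochrome oxidase. All 5 had their highest value in DSE bulbourethral library 3. MYH8, the perinatal myosin, was 11.5 TPM there, more than MYH1, with reads that the sarcomeric myosins may share. These are descriptions that lean on 3 libraries.

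In the long reads, skeletal RNA came from the BMI bulbourethral library. Of 3378 reads of the 5 skeletal genes in 10 libraries, 3359 came from BMI bulbourethral gland, which is 864 per 100000 reads (95% exact binomial interval 836 to 894). DSE bulbourethral gland held 0 of 265410 reads, which allows up to 1.13 per 100000. ACTA1 gave 1998 reads in the BMI library, CKM 1267, TNNT3 88 and MYH1 6, and MYH7 had none in any library. DES had 291 reads in BMI bulbourethral gland and 9 in DSE. In RNA-seq of this gland the 5 skeletal genes summed to 1162 TPM in DSE library 3 and 353 TPM in BMI library 1. The labels do not say whether Iso-seq and RNA-seq shared RNA. BMI epididymis gave 1 skeletal read of 458697 and DSE epididymis 0 of 231413.

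Smooth muscle reads were fewest in testis and bulbourethral gland in both breeds, as in the short reads, while epididymis was highest in DSE only and prostate in BMI. They made 356 and 1201 per 100000 in BMI and DSE epididymis, 349 and 173 in vesicular gland, 421 and 116 in prostate, 101 and 16.6 in bulbourethral gland, and 10.5 and 8.52 in testis. In BMI bulbourethral gland 291 of the 392 smooth muscle reads were of DES. DSE was above BMI in epididymis and below it in the other 4 glands, and with 1 library each there is no test.

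**Figure D4:**
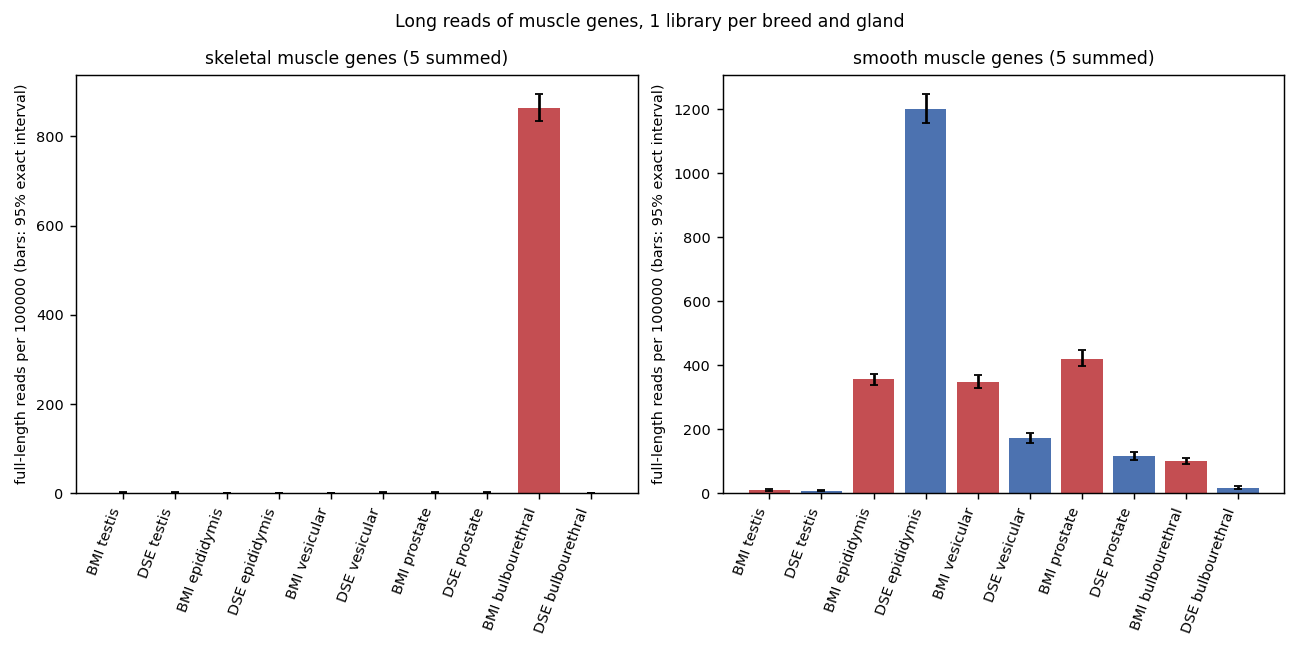
Full-length Iso-seq reads of the 5 skeletal (left) and 5 smooth muscle genes (right) per 100000 reads of each of 10 libraries, BMI in red and DSE in blue, with 95% exact binomial intervals. BMI bulbourethral gland stands alone on the left at 864 per 100000, and the epididymis libraries reach 356 and 1201 on the right.

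The muscle microRNAs were read in small RNA libraries of the same names. ssc-miR-1 and ssc-miR-206, which belong to striated muscle, have the same seed, bases 2 to 8, shown in capitals. ssc-miR-143-3p is a microRNA of smooth muscle and stroma. The sequences are those of the RefSeq annotation of Sscrofa11.1.
ssc-miR-1, chr17:61894099-61894119: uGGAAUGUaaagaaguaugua
ssc-miR-206, chr7:45976342-45976363: uGGAAUGUaaggaaguguguga
ssc-miR-143-3p, chr2:150578786-150578806: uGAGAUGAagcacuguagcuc
ssc-miR-206, in reads scaled to a fixed library total (RPM), was 1081 RPM in DSE bulbourethral library 3, 477 RPM in BMI epididymis library 1 and 142 RPM in BMI bulbourethral library 1, the 3 highest of 30 and the 3 libraries rich in TNNT3. BMI bulbourethral library 2 (101 RPM) and DSE library 2 (93.6 RPM) came next, with TNNT3 at 0.74 and 4.21 TPM. ssc-miR-1 was 4651 RPM in DSE bulbourethral library 3 and 23.8 to 618 RPM in the other 5 of that gland, and 5499 RPM in BMI epididymis library 1. It was 2403 to 3580 RPM in testis, where TNNT3 was at or near 0. Its medians in vesicular gland (842 RPM) and prostate (916 RPM) lay above the 618 RPM of BMI bulbourethral library 1. ssc-miR-133a-3p, another muscle microRNA, was 260 RPM in DSE bulbourethral library 3 and 287 RPM in BMI epididymis library 1, both gland maxima. In BMI bulbourethral library 1 it was 33.9 RPM, above the median of its gland (13.3 RPM). The medians of testis (40.2 RPM), vesicular gland (66.8 RPM) and prostate (66.4 RPM) were higher. ssc-miR-143-3p was 13757 to 34337 RPM in bulbourethral gland and 231391 to 788479 RPM in epididymis, with the highest value in DSE library 2, which was highest in the 5 smooth muscle genes. BMI vesicular library 1 (41804 RPM) and BMI prostate library 3 (30078 RPM), each the lowest of its gland in all 5 smooth muscle genes, were the lowest of their glands for this microRNA too. ssc-miR-145-5p, from the same cluster, did so only in part: its highest epididymis library was BMI library 1 (9547 RPM, against 5147 RPM in DSE library 2) and its lowest vesicular library DSE library 3 (863 RPM, against 1616 RPM in BMI library 1), while BMI prostate library 3 (1338 RPM) was again the lowest of its gland.

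**Figure D5:**
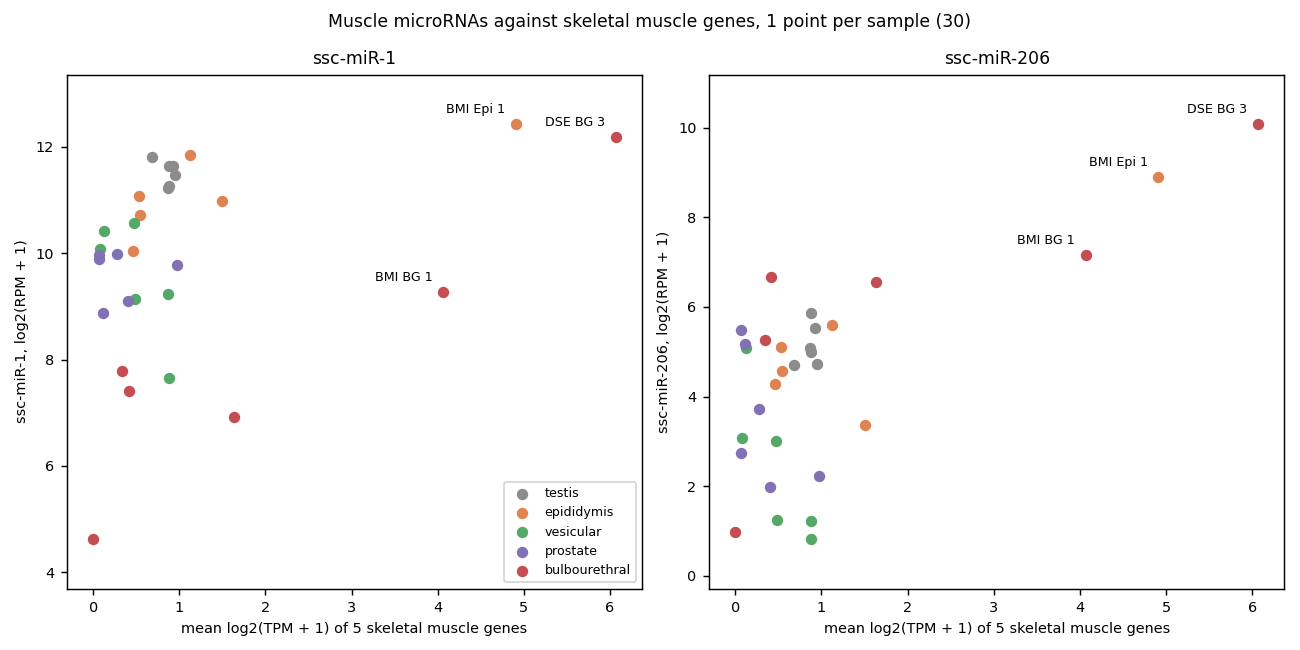
ssc-miR-1 (left) and ssc-miR-206 (right), as log2(RPM + 1), against the mean log2(TPM + 1) of the 5 skeletal muscle genes in 30 samples coloured by gland. The 3 labelled libraries lie far to the right and are the highest in ssc-miR-206 (1081, 477 and 142 RPM), while testis is high in ssc-miR-1 with TNNT3 at or near 0.

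No muscle gene differed between breeds by limma in any gland. The call counts were 0 of 8 in testis (0.196% of all genes were called), epididymis (0%), vesicular gland (0.01%), prostate (0.0854%) and bulbourethral gland (0.0251%), and 0 of 8 in each alternative. At an unadjusted p below 0.05 there was 1 smooth muscle gene in testis, and 1 skeletal gene in vesicular gland. In prostate the log2 differences of the 5 smooth muscle genes, BMI minus DSE, lay between -2.41 and -2.02, with limma adjusted p between 0.19 and 0.30. The low libraries were BMI prostate libraries 1 and 3, whose sums of the 5 genes were 408 and 206 TPM, against 2096 TPM in BMI library 2 and 1631 to 3485 TPM in DSE. ACTA2 was the 1 member whose prostate libraries did not overlap between breeds (44.8, 113 and 433 TPM in BMI, 448, 702 and 785 TPM in DSE), where 29.5% of all genes were lower in BMI without overlap. Without BMI prostate library 2, rich in spermadhesins, the differences of the 5 genes lay between -3.50 and -2.92, with limma adjusted p between 0.074 and 0.088. Without DSE library 2 as well they lay between -3.77 and -3.23, with limma adjusted p between 0.073 and 0.085. Other settings gave smaller differences, down to -0.91 for MYH11 and -1.13 for ACTA2 with Ensembl transcripts alone, and to -1.50 for both without BMI library 3. None of 13 alternatives called a smooth muscle gene here.

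ACTA1 was also lower in BMI without overlap in vesicular gland. It was 0, 0.25 and 2.06 TPM in BMI and 4.35, 12.1 and 17.6 TPM in DSE, a difference of -2.80 ± 0.66 (limma adjusted p = 0.22), where 1.75% of all genes were lower in BMI without overlap. In testis ACTA2, MYH11 and DES were lower in BMI without overlap, as were 7.59% of all genes, and the difference furthest from 0 was -0.62 for DES. Whether the breed difference varied among glands was tested by an F test of the interaction, which called 0 of 8 (2.94% of all genes were called), with adjusted p of 0.48 or more. In the bulbourethral gland each breed had 1 library rich in skeletal RNA, and the difference of ACTA1 (-1.30 ± 3.22) had a standard error larger than itself.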

How the data were processed

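The authors trimmed the RNA-seq reads and quantified them with Salmon 1.9.0 (named in the submitters' processing notes) on Ensembl transcripts merged with new Iso-seq isoforms on Sscrofa11.1, and deposited TPM per transcript. They deposited raw counts of full-length reads per isoform and library for Iso-seq, and RPM per miRNA from small RNA reads. The labels name rRNA depletion for RNA-seq and the methods poly-T beads. The TPM table keeps no read depth, so its counting error is unknown. Iso-seq libraries held 231413 to 458697 reads.

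Here TPM was summed by gene name and used as log2(TPM + 1). Glands were compared in 1 limma 3.58.1 fit with trend over 10 groups of breed and gland, and breeds in 1 fit per gland. Filters, thresholds and tests are given with the results. A miRNA listed for several precursors was taken at its highest. The steps were tested on simulated data. Tools were R 4.3.3, scipy 1.17.1 and pysam 0.24.0. The 10 genes, the lists and the tests were chosen with earlier results of these data known. All 10 genes are named, of each list up to 4 with the highest mean TPM, and the 5 genes most alike to each set. Outside this rule, MYOCD, MYBPC2, MYOT, MYOD1, MYOG, MYL2, MYL3, CASQ2, TNNI1, TNNT1, TNNC2, TCAP, KLK4, NPPA and NPPB were named after their values were seen. Alternatives were another pseudocount, no filter, size factors, a replicate block, no trend, array weights, Ensembl transcripts only, 1 fit of all glands for the breed comparison, each library left out, and, chosen after seeing the data, the 3 libraries rich in TNNT3 or the 2 prostate libraries with the highest sums of the vesicular list (BMI library 2 through spermadhesins, DSE library 2 through SAL1) left out.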

Additional observations from a re-analysis of the deposited data

Results flagged for a closer look

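Each of the 10 genes was examined in the 6 libraries of each gland on the log2(TPM + 1) scale, 50 sets in all, for a highest or lowest library whose gap to the next exceeds Dixon's 95% critical share of the range, and 9 were found. Chance alone gives about 1 set in 20 for continuous values, which does not hold for the 3 sets where the other 5 libraries were all at 0 (ACTA1 in epididymis, TNNT3 in testis and in prostate), since any trace stands apart there.

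In epididymis, BMI library 1 stood apart in ACTA1 (341 TPM, next 0), MYH1 (4.40 TPM, next 0.09) and TNNT3 (103 TPM, next 0.33). In bulbourethral gland, DSE library 3 stood apart in MYH1 (4.37 TPM, next 0.39) and MYH7 (6.09 TPM, next 0.02). ACTA1, CKM and TNNT3 were not picked out in that gland, since BMI library 1 is high as well.

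The other 4 were traces below 0.1 TPM: MYH1 in DSE prostate library 3 (0.055 TPM), MYH7 in BMI prostate library 2 (0.027 TPM), TNNT3 in DSE testis library 3 (0.086 TPM) and TNNT3 in BMI prostate library 1 (0.052 TPM).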

How the results depend on the processing

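Of 568 recomputed counts of called genes, 528 stayed within 1.5 times the original count and 40 moved. The smooth muscle counts of the 6 comparisons of epididymis, vesicular gland or prostate with testis or bulbourethral gland stayed at 4 or 5 of 5. Leaving out each library in turn, counts of smooth muscle genes ran from 3 to 5 for prostate against epididymis (3 without BMI epididymis library 1, DSE epididymis library 2 or BMI prostate library 3) and from 3 to 5 for vesicular gland against epididymis (5 without BMI epididymis library 2 or DSE epididymis library 1). Skeletal counts ran from 0 to 2 for bulbourethral gland against each other gland, and from 1 to 2 for epididymis against testis. Leaving out the 3 libraries rich in TNNT3 gave skeletal counts of 2 (epididymis against testis, vesicular gland against epididymis), 1 (prostate against testis, bulbourethral gland against epididymis) and 0 (bulbourethral against vesicular gland). Array weights gave 0 skeletal and 2 smooth genes for bulbourethral gland against testis, and 1 skeletal gene each against epididymis and vesicular gland. With pseudocount 0.1 there were 2 skeletal genes for epididymis against testis and 1 for bulbourethral gland against prostate. Ensembl transcripts alone gave 2 for bulbourethral gland against testis and 1 against vesicular gland, size factors gave 1 and no filter 0 for the latter. Size factors turned all calls of bulbourethral minus vesicular gland from 4705 higher and 823 lower into 1512 and 1723. On the TPM scale 16 sets held a library apart. The causes were not tested.

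ACTA1 changed sign with Ensembl transcripts alone, to 1.38 (epididymis), 2.03 (vesicular gland) and 1.25 (prostate) minus testis. With array weights it was -0.37 and -0.026 for bulbourethral minus vesicular gland and minus prostate, and without the 3 libraries -0.71 minus vesicular gland. Without those 3, CKM was -0.014 for bulbourethral minus testis and TNNT3 -0.076 for BMI minus DSE in epididymis, the latter also without BMI epididymis library 1 alone (-0.076 to 3.27 over single libraries left out). ACTA1 for BMI minus DSE in bulbourethral gland was 1.20 without DSE library 3 and ran from there to -3.65 over single libraries left out. CKM (-0.98) and TNNT3 (-0.93) changed sign in this comparison too, with ranges of -2.74 to 1.21 and -2.81 to 1.38 over all alternatives. ACTA1 for bulbourethral minus testis went from 0.44 to -1.98, called lower, without the 3 libraries rich in TNNT3.

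Replicate numbers are shared between groups, but same-numbered libraries did not deviate together throughout (r from -0.30 to 0.39 between glands of a breed, 20 of 60 pairs over 0.1, and from -0.55 to 0.37 between breeds, 4 of 15). All 3 pairs were over 0.1 in 2 of 20 sets of 2 glands in a breed, DSE vesicular gland with epididymis and with testis, and in 0 of 10 pairs of glands over both breeds were all pairs over 0.1. A replicate block gave 1 skeletal gene (TNNT3) for bulbourethral gland against prostate and moved no other count by over 1.5 times.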
